A study of Mus musculus with 6 samples.

Results

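Complex I of the mitochondrial respiratory chain is built from nuclear and mitochondrial gene products, and 7 of its subunits are encoded by mitochondrial DNA. In the count table their mRNAs form 6 features, mt-Nd1, mt-Nd2, mt-Nd3, mt-Nd4l_4, mt-Nd5 and mt-Nd6, of 36 mitochondrial features and 30638 features in all. They were taken by name, and mt-Nd4l_4 joins the overlapping genes mt-Nd4l and mt-Nd4. Counts come from small RNA libraries of whole hearts, size-selected for inserts of 15 to 100 nt. Each count is thus a short fragment assigned to an mRNA feature and not a full-length message. Whether a fragment came from a released mRNA or from a longer, uncut RNA cannot be told. The 3 knockout mice, titled L/L, cre and given the genotype Elac2 -/-, carry floxed Elac2 alleles. From these an exon was excised by cre under the muscle creatine kinase promoter. The 3 control mice, titled L/L, carry the floxed alleles without cre, although their genotype label reads Elac2 +/+. All mice have a C57BL/6 background, and their age was not stated. That promoter is active in striated muscle cells, so the deletion does not by design include the other cells of the heart.

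Mammalian mitochondrial DNA is transcribed from each strand as long precursors in which most mRNAs and rRNAs are separated by tRNAs. RNase P cuts at the 5′ end of each tRNA and ELAC2, the RNase Z of animals, cuts at its 3′ end, and the same cuts release the RNAs that lie between tRNAs. Heart muscle depends on oxidative phosphorylation, and complex I is the entry point for electrons from NADH. mt-Nd1, mt-Nd2, mt-Nd3, mt-Nd4l, mt-Nd4 and mt-Nd5 encode membrane-arm subunits from the heavy-strand transcript, and mt-Nd6 encodes the only one read from the light-strand transcript.

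In the mouse mitochondrial genome each of the 6 features begins at the 3′ end of a tRNA on its own strand, which places its 5′ boundary at a cut site of ELAC2. The gap was 0 nt at 5 of the 6 boundaries and 1 nt between mt-Tr and mt-Nd4l. The sequences at these boundaries are shown because the comparison below sets each mRNA against the tRNA released by the same cut. They are from GENCODE M21 transcripts (GRCm38), 5′ to 3′, with the last 30 bases of the tRNA in lower case and the first 30 bases of the mRNA in capitals.
mt-Tl1 to mt-Nd1, chrM:2721-2780, plus strand: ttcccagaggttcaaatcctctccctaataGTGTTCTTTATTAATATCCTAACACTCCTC
mt-Tm to mt-Nd2, chrM:3884-3943, plus strand: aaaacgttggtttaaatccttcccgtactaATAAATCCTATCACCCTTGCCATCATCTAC
mt-Tg to mt-Nd3, chrM:9429-9488, plus strand: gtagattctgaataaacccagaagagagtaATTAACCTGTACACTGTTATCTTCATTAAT
mt-Tr end, chrM:9846-9875, plus strand: ttagattatgatgatgttcataattaccaa
mt-Nd4l_4 start, chrM:9877-9906, plus strand: ATGCCATCTACCTTCTTCAACCTCACCATA
mt-Tl2 to mt-Nd5, chrM:11712-11771, plus strand: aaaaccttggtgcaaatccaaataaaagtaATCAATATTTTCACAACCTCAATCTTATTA
mt-Te to mt-Nd6, chrM:14041-14100, minus strand: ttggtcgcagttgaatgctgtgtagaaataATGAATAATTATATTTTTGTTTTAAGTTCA
The annotated mRNAs start directly with their first codon, which differed between members: GTG in mt-Nd1, ATA in mt-Nd2, ATT in mt-Nd3, ATC in mt-Nd5, and ATG in mt-Nd4l, mt-Nd4 and mt-Nd6.

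The 3′ boundaries were of more than 1 kind, and several features share bases there, which matters for how a read is assigned. mt-Nd1 shares its last 2 bases with mt-Ti, the isoleucine tRNA, and mt-Nd2 shares its last 2 with mt-Tw, the tryptophan tRNA. mt-Nd3 ends 1 nt before mt-Tr, the arginine tRNA, and mt-Nd4l_4 ends 1 nt before mt-Th, the histidine tRNA. No tRNA directly follows mt-Nd5 or mt-Nd6 on the same strand: the next annotated gene is mt-Cytb, 579 nt on, for mt-Nd5 and the serine tRNA mt-Ts1, 6613 nt on, for mt-Nd6. These last 2 features overlap tail to tail on opposite strands over 14 bases, which are in capitals in both ends.
mt-Nd4l and mt-Nd4 with their 7 shared bases in capitals, chrM:10144-10196, plus strand: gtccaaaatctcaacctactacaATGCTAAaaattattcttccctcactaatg
mt-Nd5 end, chrM:13536-13565, plus strand: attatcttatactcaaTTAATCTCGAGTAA
mt-Nd6 end, chrM:13552-13581, minus strand: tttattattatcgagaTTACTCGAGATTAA
Whether counting used strand was not stated, so reads of mt-Nd5 and mt-Nd6 over these bases cannot be told apart. If strand was not used, reads antisense to mt-Nd6 or mt-Te along their whole length could also have been counted in them.

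The members differ in length and in base composition. mt-Nd5 (chromosome M, 11742 to 13565) is 1824 nt long and the joined mt-Nd4l_4 (9877 to 11544) is 1668 nt long. mt-Nd2 (3914 to 4951) has 1038 nt, mt-Nd1 (2751 to 3707) 957 nt, mt-Nd6 (13552 to 14070, minus strand) 519 nt and mt-Nd3 (9459 to 9806) 348 nt. In the heavy-strand transcripts 8.0% to 11.6% of bases were G and 22.1% to 27.7% were C. The mt-Nd6 transcript had 28.1% G, 5.97% C and 43.7% T.

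Libraries held 14505705 to 15271036 counts in knockout hearts and 13510061 to 16248673 in control hearts. Features with at least 1 count numbered 2995 to 3160 in knockout and 4664 to 6018 in control libraries, and TMM factors were 0.828 to 0.949 in knockout and 1.09 to 1.15 in control libraries, so the groups did not overlap in either. The level of Elac2 mRNA was not analysed here, and the genotypes were taken from the labels alone. All 7 cardiomyocyte miRNA genes looked up were detected, and the skeletal muscle genes Mir206 and Mir133b had 0 counts. Levels are TMM-scaled counts per 1e6 library counts (CPM). The summed cardiomyocyte level was 72646 to 93258 CPM in knockout and 117769 to 147880 CPM in control hearts. For 2 detected of 4 fibroblast genes it was 2217 to 2345 CPM in knockout and 1156 to 1626 CPM in control hearts, with Mir199a-2 and Mir214 at 0. The 4 detected of 6 leukocyte genes summed to 159 to 193 CPM in knockout and 125 to 156 CPM in control hearts, with Mir223 and Mir155 at 0. Endothelial Mir126a (17614 to 20966 CPM in knockout, 19511 to 23749 CPM in control hearts, with Mir126b at 0) and 3 smooth muscle genes (22066 to 30027 CPM in knockout, 26644 to 33554 CPM in control hearts) overlapped between the groups. The summed red cell genes (2205 to 2921 CPM in knockout, 2644 to 3693 CPM in control hearts) and the liver gene Mir122 (1.31 to 1.90 CPM in knockout, 0.546 to 2.34 CPM in control hearts) overlapped too. The part of the differences in feature number, scaling factor and markers in the results below was not tested. In whole hearts fewer cells of a type and less RNA per cell cannot be told apart.

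All 6 complex I mRNA features fell in knockout hearts, by 9.42 to 25.2 times. Together they held 0.0329% ± 0.00774 (SD, n = 3) of all counts in knockout libraries and 0.572% ± 0.245 (SD, n = 3) in control libraries, 17.4 times less. The 3 knockout libraries had 0.0394%, 0.0349% and 0.0243%, against 0.302%, 0.780% and 0.635% in the control libraries, and the groups did not overlap. An exact two-sided permutation test gave p = 0.1 (n = 3 per group), the smallest p that 3 against 3 allow. In counts these shares were 5715, 5331 and 3636 fragments in knockout and 40828, 126691 and 101364 in control libraries.

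Across all tested features the background of calls was high. Of 1144 features tested with the quasi-likelihood test of edgeR at a Benjamini-Hochberg adjusted p under 0.05, 574 (50.2%) were called. Lower calls made up 309 (27.0%) and higher calls 265 (23.2%), while 6 of 6 complex I features were called lower. Lower calls were not particular to complex I within the mitochondrial genome. The 5 other mRNA features, the 2 rRNAs and all 22 tRNAs were called lower too. The mitochondrial feature mt-7s was not called (log2 fold change 0.19, SE 0.16, adjusted p = 0.328). All adjusted p-values below are from this edgeR test. Every knockout library lay below every control library for 6 of 6 complex I features, against 33.7% of all tested features, and the groups did not overlap in either direction for 63.0% of them. The median log2 fold change was -4.03 over the complex I features and -0.01 over all tested features. The share of higher calls among all calls was 46.2% here and lay between 13.3% and 64.4% under 4 other library scalings and DESeq2, which moved the median over the features shared with the TMM fit by -0.84 to 0.54. Without control replicate 1, 559 of 1410 features were called lower, and all 6 complex I features were among them.

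**Figure D1:**
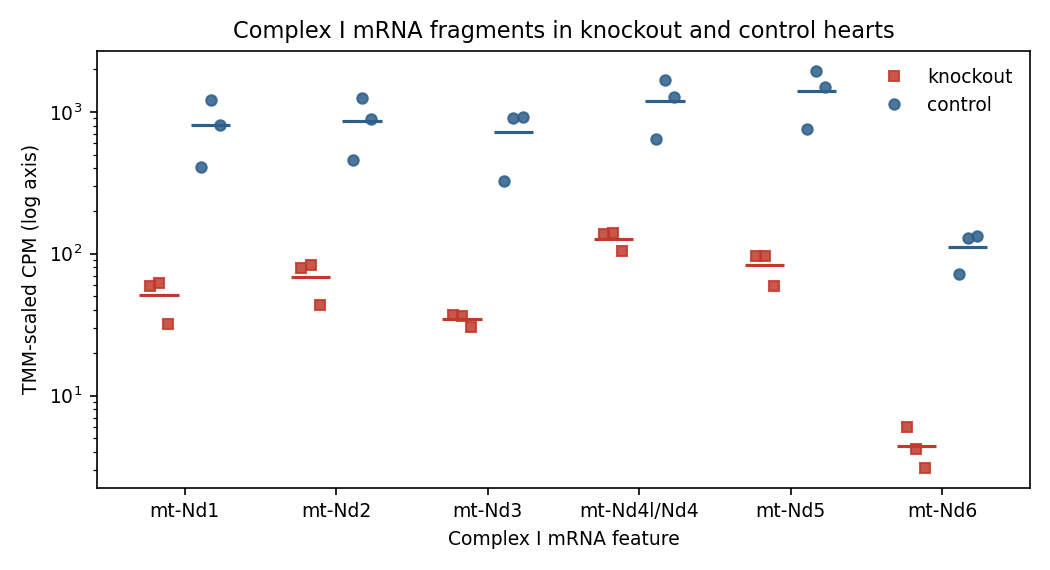
TMM-scaled CPM on a log axis for each complex I mRNA feature, with 1 square per knockout library, 1 circle per control library and a line at each group mean. The highest knockout library lies below the lowest control library for every feature, for example 62.0 against 407 CPM for mt-Nd1.

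mt-Nd1 and mt-Nd2, the first of the members along the heavy-strand transcript, fell by 16.0 and 12.6 times. mt-Nd1, whose protein lies where the membrane arm meets the matrix arm of complex I, had 59.1, 62.0 and 32.0 CPM in knockout hearts, against 407, 1222 and 813 CPM in control hearts. Its log2 fold change was -4.0 (SE 0.40, adjusted p = 1.09e-05). mt-Nd2, which encodes one of the proton-pumping membrane subunits, had 79.7, 83.4 and 43.8 CPM in knockout hearts, against 457, 1252 and 890 CPM in control hearts. Its log2 fold change was -3.65 (SE 0.37, adjusted p = 1.24e-05). In each feature knockout replicate 3 and control replicate 1 were the lowest libraries of their groups, and the groups did not overlap.

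mt-Nd3, the shortest member, encodes a small subunit with a loop near the quinone-binding site. It had 36.7, 36.5 and 30.5 CPM in knockout hearts, against 325, 902 and 922 CPM in control hearts. The log2 fold change was -4.37 (SE 0.37, adjusted p = 3.87e-06), the largest fall among the 5 heavy-strand members. The knockout libraries were close together, with a coefficient of variation of 10.2%, against 47.3% in the control libraries.

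mt-Nd4l_4 joins the message of another pumping subunit, mt-Nd4, to that of the small subunit mt-Nd4l. It had 138, 139 and 105 CPM in knockout hearts, against 640, 1676 and 1281 CPM in control hearts. This was the smallest fall of the 6, -3.24 as log2 fold change (SE 0.32, adjusted p = 9.14e-06). It was also the most abundant member by CPM in knockout hearts, at 127 ± 19.3 CPM (SD, n = 3). In control hearts mt-Nd5 was the most abundant, at 1402 ± 607 CPM (SD, n = 3). These places are uncertain, because mt-Nd4l_4 has near-identical nuclear copies, described below.

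mt-Nd5, a further pumping subunit at the far end of the membrane arm, had 96, 96.5 and 59.2 CPM in knockout hearts, against 752, 1955 and 1499 CPM in control hearts. Its log2 fold change was -4.06 (SE 0.35, adjusted p = 3.96e-06). mt-Nd6, the light-strand member, had 5.96, 4.19 and 3.09 CPM in knockout hearts, against 72.4, 129 and 133 CPM in control hearts. It fell by 4.66 on the log2 scale, the most of the 6 (SE 0.33, adjusted p = 1.08e-06). The knockout values rest on 82, 53 and 41 counts, so their counting error is the largest of the set.

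The libraries of a group kept nearly the same order across members. Knockout replicate 3 was the lowest knockout library for 6 of 6 members, and control replicate 1 was the lowest control library for 6 of 6. Control replicate 2 had 1.79 to 3.0 times the CPM of control replicate 1, and knockout replicate 3 had 0.518 to 0.831 times that of knockout replicate 1. Without control replicate 1 the log2 fold changes were between -4.82 (mt-Nd6) and -3.46 (mt-Nd4l_4), and without knockout replicate 3 between -4.23 (mt-Nd6) and -2.88 (mt-Nd4l_4), with all 6 called in both cases. Scaling by snoRNA and scaRNA features moved every member by more than 1.5 times, to between -5.50 (mt-Nd6) and -4.07 (mt-Nd4l_4). Scaling by snRNA and nuclear rRNA features moved them the other way, to between -4.12 (mt-Nd6) and -2.67 (mt-Nd4l_4), and moved mt-Nd3 by more than 1.5 times, to -3.77.

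Per kilobase of annotated length the members stood in another order. In knockout hearts mt-Nd3 led at 99.3 ± 10.1 CPM per kb (SD, n = 3), followed by mt-Nd4l_4 at 76.3 ± 11.6, mt-Nd2 at 66.4 ± 21.1, mt-Nd1 at 53.3 ± 17.3 and mt-Nd5 at 46.0 ± 11.7 CPM per kb. mt-Nd6 was far below them at 8.50 ± 2.79 CPM per kb. In control hearts mt-Nd3 led too, at 2059 ± 974 CPM per kb (SD, n = 3), and did so within each of the 3 libraries. Its lowest control library (935 CPM per kb) still lay below the highest of each other heavy-strand member (1005 to 1277 CPM per kb). mt-Nd1 (851 ± 426), mt-Nd2 (835 ± 383), mt-Nd5 (768 ± 333) and mt-Nd4l_4 (719 ± 313) followed with ranges that overlapped each other, and mt-Nd6 was lowest at 215 ± 65.6 CPM per kb. The lowest knockout library of mt-Nd3 (87.6 CPM per kb) lay above the highest of mt-Nd4l_4 (83.4 CPM per kb). Both features have near-identical nuclear copies, described below, so their places in these orders are uncertain. The ranges of mt-Nd4l_4, mt-Nd2, mt-Nd1 and mt-Nd5 each overlapped that of the next in knockout hearts. mt-Nd6 lay apart from the others in each group.

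The other mitochondrial mRNA features fell as well. The share of the complex I features among all mitochondrial mRNA counts overlapped between the groups. All 5 other features were called lower, with a median log2 fold change of -3.60. mt-Co1, a catalytic subunit of cytochrome c oxidase, fell most (-4.78, SE 0.40, adjusted p = 3.23e-06), followed by mt-Co2, its copper-binding partner (-4.41, SE 0.33, adjusted p = 1.55e-06). Next came the ATP synthase message mt-Atp8_6 (-3.60, SE 0.34, adjusted p = 7.28e-06) and mt-Cytb of complex III (-3.35, SE 0.34, adjusted p = 1.10e-05). mt-Co2, mt-Atp8_6 and mt-Cytb lay within the range of the complex I members. mt-Co3, another cytochrome c oxidase subunit, fell least (-2.21, SE 0.26, adjusted p = 3.40e-05). Complex I features took 38.5% ± 1.43 of mitochondrial mRNA counts in knockout and 37.5% ± 0.578 in control hearts (SD, n = 3 each), with overlapping groups and p = 0.4 in an exact two-sided permutation test. The ribosomal RNAs mt-Rnr1 (-0.77, SE 0.20, adjusted p = 0.00739) and mt-Rnr2 (-0.62, SE 0.15, adjusted p = 0.00455) fell less. Of all mitochondrial counts, the complex I features held 2.31% ± 0.334 in knockout and 6.48% ± 1.07 in control hearts (exact p = 0.1, n = 3 per group). The list of 37 nuclear genes of complex I subunits had 0 members in the table.

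**Figure D2:**
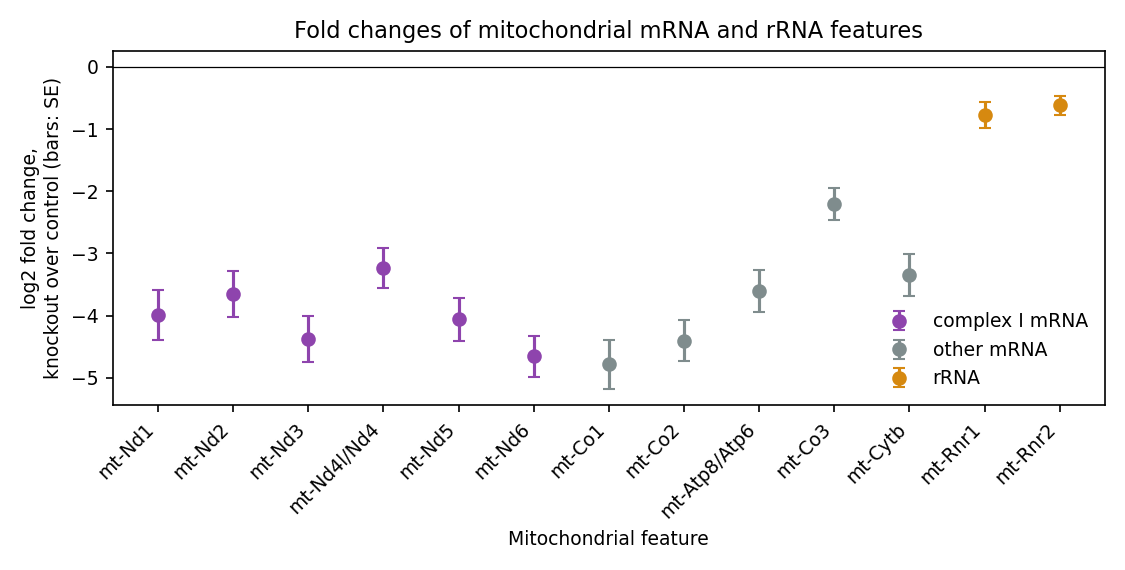
Log2 fold changes of knockout over control hearts with standard errors for the complex I mRNA features, the other mitochondrial mRNA features and the mitochondrial rRNAs. Complex I features lie between -4.66 and -3.24, inside the range of the other mRNAs (-4.78 to -2.21), and the rRNAs lie at -0.77 and -0.62.

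The members were next compared by their shares of the complex I counts within a library, which do not depend on how libraries were scaled. mt-Nd4l_4 held 33.2%, 33.0% and 38.4% of the complex I counts in knockout libraries, against 24.1%, 23.5% and 23.1% in control libraries. mt-Nd5 held 23.1%, 22.9% and 21.6% in knockout libraries, against 28.3%, 27.4% and 27.1% in control libraries. Hence mt-Nd4l_4 was above mt-Nd5 in every knockout library and below it in every control library. The order within each group is uncertain, because mt-Nd4l_4 has near-identical nuclear copies, described below. mt-Nd3 held 9.54% ± 1.39 in knockout and 13.8% ± 2.44 in control libraries, and mt-Nd6 held 1.19% ± 0.226 in knockout and 2.31% ± 0.464 in control libraries (SD, n = 3 each). For these 4 of the 6 features the groups did not overlap, a share near the 63.0% of all tested features whose CPM did not overlap. That background is of another measure, since shares among the 6 features depend on one another. The exact two-sided permutation test gave p = 0.1 for each of the 4 (n = 3 per group), the smallest it can give. mt-Nd1 (13.5% ± 1.62 in knockout and 15.7% ± 1.26 in control libraries, exact p = 0.2, n = 3 per group) and mt-Nd2 (18.3% ± 2.03 in knockout and 16.9% ± 0.777 in control libraries, exact p = 0.4) overlapped.

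**Figure D3:**
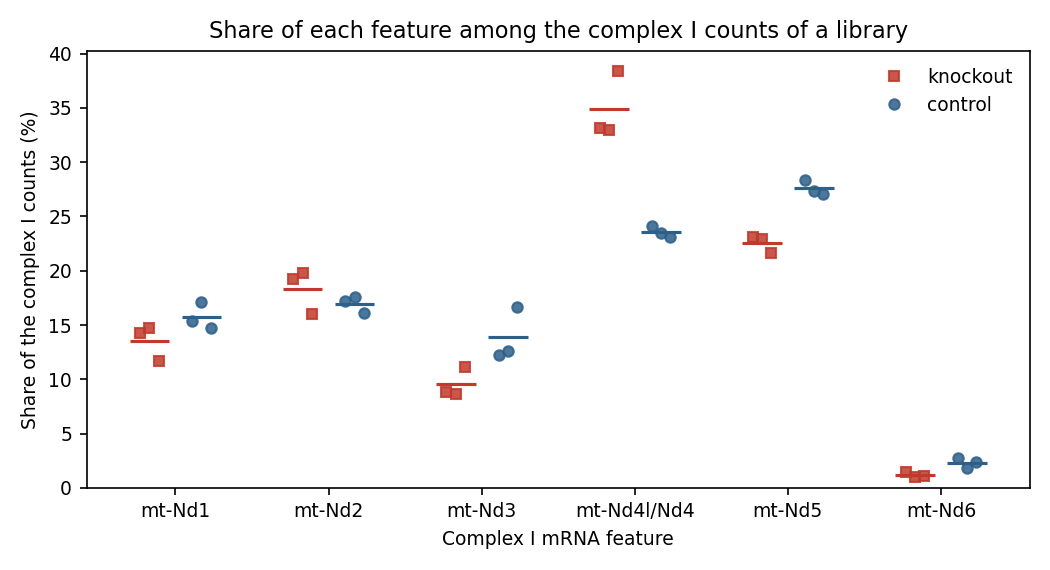
Share of the complex I counts of a library that fell in each feature, in percent, with 1 square per knockout library, 1 circle per control library and a line at each group mean. mt-Nd4l_4 takes 34.9% of the knockout counts and 23.6% of the control counts on average, and mt-Nd5 takes 22.5% of the knockout and 27.6% of the control counts.

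Ratios between members were then compared for all 15 pairs. A difference in fold change alone does not show that 2 features changed by different amounts. With a pseudocount of 0.5, groups did not overlap for 11 pairs and overlapped for 4. Among all 653796 pairs of tested features 65.7% did not overlap, so the count is near that of features in general. With a pseudocount of 10, mt-Nd1 over mt-Nd6 (exact permutation p = 0.3) and mt-Nd5 over mt-Nd6 (exact permutation p = 0.2) overlapped too. No pair could pass a threshold of 0.05, because the exact permutation test reaches p = 0.1 at best and 0.136 after Benjamini-Hochberg adjustment over the 15 pairs. The widest difference was that of mt-Nd4l_4 over mt-Nd6, whose log2 ratio was 4.52, 5.04 and 5.07 in knockout libraries, against 3.15, 3.70 and 3.27 in control libraries. The ratio of mt-Nd4l_4 to mt-Nd5 was the steadiest in control hearts, at -0.23, -0.22 and -0.23, and was 0.52, 0.53 and 0.83 in knockout libraries. mt-Nd3 over mt-Nd4l_4 was -1.91, -1.93 and -1.78 in knockout libraries, against -0.98, -0.89 and -0.47 in control libraries. For the tail-to-tail neighbours, the log2 ratio of mt-Nd5 to mt-Nd6 was 4.25 ± 0.255 in knockout and 3.60 ± 0.286 in control libraries (SD, n = 3 each).

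The 4 overlapping pairs were mt-Nd1 with mt-Nd3, mt-Nd1 with mt-Nd5, mt-Nd3 with mt-Nd5 and mt-Nd3 with mt-Nd6. The smallest difference of all was in mt-Nd1 over mt-Nd5, at -0.74 ± 0.130 in knockout and -0.81 ± 0.119 in control libraries (SD, n = 3 each; exact two-sided permutation p = 0.7). In mt-Nd1 over mt-Nd2, which are neighbours along the heavy-strand transcript, the difference was small but without overlap, at -0.43, -0.43 and -0.45 in knockout libraries, against -0.17, -0.04 and -0.13 in control libraries. Among pairs without overlap, leaving out 1 library changed the size of the log2 difference itself by a factor of over 1.5 only for mt-Nd2 over mt-Nd4l_4. That difference was -0.45 and, without knockout replicate 3, -0.29.

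**Figure D4:**
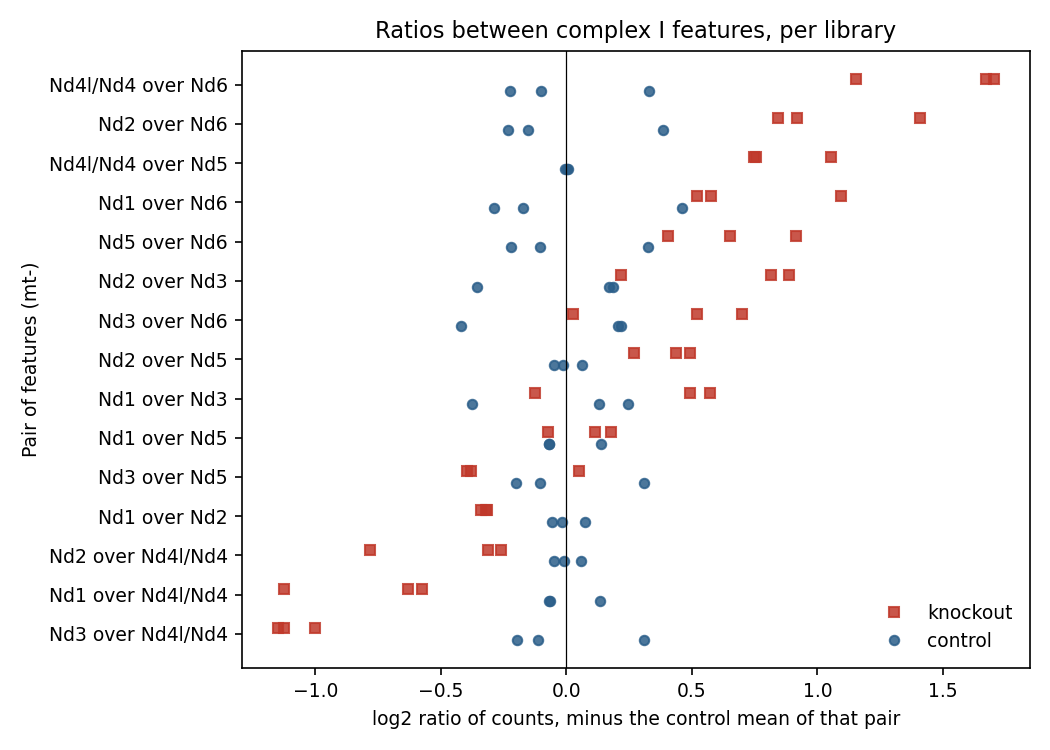
Log2 ratios of counts for the 15 pairs of complex I features, each shifted by the control mean of that pair, with 1 square per knockout library and 1 circle per control library. The mean of the knockout libraries runs from -1.09 for mt-Nd3 over mt-Nd4l_4 to 1.51 for mt-Nd4l_4 over mt-Nd6, and the groups overlap in 4 of the 15 pairs.

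Each mRNA was next set against the tRNA whose 3′ end forms its 5′ boundary, shown in the sequences above. Per tRNA count, knockout libraries held fewer fragments of mt-Nd1 and mt-Nd2 than control libraries did, and more of the other 4 features. The leucine tRNA mt-Tl1 had 322 ± 11.5 CPM in knockout and 996 ± 415 CPM in control hearts (SD, n = 3 each; log2 fold change -1.63, SE 0.26, adjusted p = 0.000316). Per count of mt-Tl1 there were 0.152 counts of mt-Nd1 in knockout and 0.787 in control libraries (geometric means), and the log2 ratio was -2.39, -2.38 and -3.38 in knockout libraries, against -0.61, -0.24 and -0.18 in control libraries. The methionine tRNA mt-Tm had 17.3 ± 2.62 CPM in knockout and 96.2 ± 41.0 CPM in control hearts (SD, n = 3 each; log2 fold change -2.47, SE 0.31, adjusted p = 5.11e-05). The log2 ratio of mt-Nd2 to mt-Tm was 2.06, 2.17 and 1.61 in knockout libraries, against 2.98, 3.17 and 3.28 in control libraries.

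For the remaining features the ratio was higher in knockout libraries. The glycine tRNA mt-Tg fell by 5.08 on the log2 scale (SE 0.26, adjusted p = 2.55e-07), and the log2 ratio of mt-Nd3 to it was -2.26, -2.18 and -1.81 in knockout libraries, against -3.52, -2.59 and -2.71 in control libraries. The arginine tRNA mt-Tr fell by 4.39 (SE 0.38, adjusted p = 3.88e-06), and there were 32.7 counts of mt-Nd4l_4 per count of mt-Tr in knockout and 14.5 in control libraries. The leucine tRNA mt-Tl2 fell by 4.75 (SE 0.39, adjusted p = 3.06e-06), and mt-Nd5 had 18.4 counts per tRNA count in knockout and 11.1 in control libraries. On the light strand the glutamate tRNA mt-Te fell by 5.50 (SE 0.33, adjusted p = 4.51e-07), and mt-Nd6 had 0.139 counts per tRNA count in knockout and 0.0797 in control libraries.

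In all 6 pairs the knockout and control libraries did not overlap, against 65.7% of all pairs of tested features, and each exact two-sided permutation test gave p = 0.1 (n = 3 per group), also 0.1 after Benjamini-Hochberg adjustment over the 6. The differences in log2 ratio were -2.37 for mt-Nd1, -1.20 for mt-Nd2, 0.86 for mt-Nd3, 1.17 for mt-Nd4l_4, 0.73 for mt-Nd5 and 0.80 for mt-Nd6. Without control replicate 1 the difference for mt-Nd3 was 0.57. The tRNA counts behind mt-Tr and mt-Tl2 were low in knockout libraries, at 65, 54 and 37 for mt-Tr and 81, 66 and 37 for mt-Tl2. A library of 15 to 100 nt can hold a whole tRNA but no whole mRNA, so the ratios compare fragments with tRNA reads and do not measure uncut precursors. Reads that span a boundary may have been counted in either feature or in neither, which the counts do not show.

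**Figure D5:**
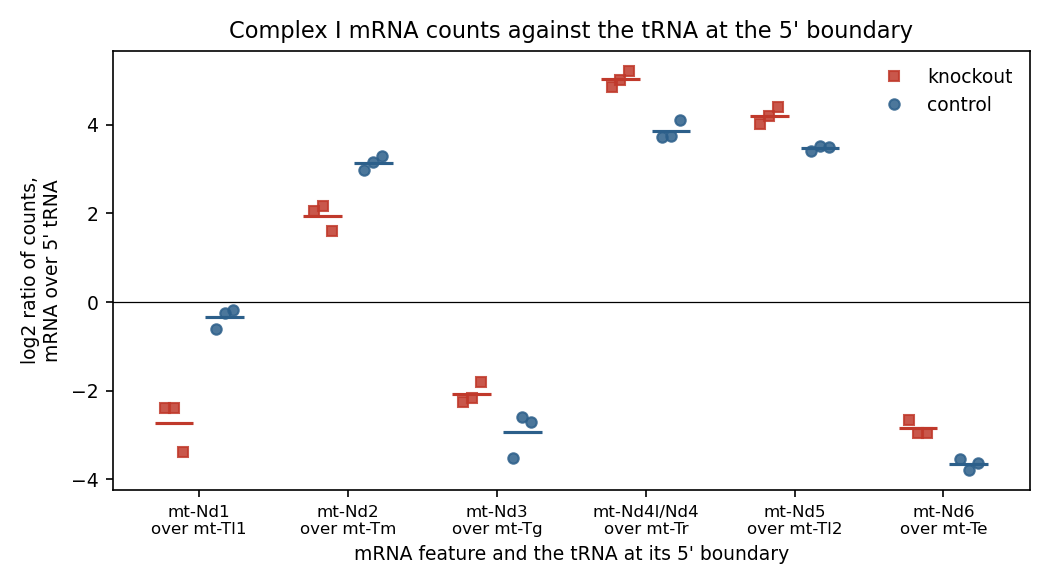
Log2 ratio of the counts of each complex I mRNA feature to those of the tRNA at its 5′ boundary, with 1 square per knockout library, 1 circle per control library and a line at each group mean. The knockout libraries lie below the control libraries for mt-Nd1 and mt-Nd2 and above them for the other 4 features.

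The tRNAs at the 3′ boundaries fell by unequal amounts. The isoleucine tRNA mt-Ti, which follows mt-Nd1, had 126 ± 8.02 CPM in knockout and 301 ± 141 CPM in control hearts (SD, n = 3 each; log2 fold change -1.25, SE 0.29, adjusted p = 0.00335). After mt-Nd2 comes the tryptophan tRNA mt-Tw, with 16.9 ± 2.88 CPM in knockout and 67.8 ± 32.3 CPM in control hearts (log2 fold change -2.0, SE 0.32, adjusted p = 0.000306). The histidine tRNA mt-Th, which follows mt-Nd4l_4, fell by 2.01 on the log2 scale (SE 0.29, adjusted p = 0.000155), and mt-Tr, which follows mt-Nd3, by 4.39 as given above. mt-Nd1, mt-Nd2 and mt-Nd4l_4 thus had larger falls than their 3′ tRNA, while mt-Nd3 and mt-Tr had nearly the same value. The differences between these mRNAs and their 3′ tRNAs were not tested.

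Near-identical copies of complex I genes exist in the nuclear genome, and the treatment of reads with several alignments was not stated. Of the pseudogenes in the table, 6 shared at least 30 nt at 90% identity or more with a member (BLASTN on GENCODE M21 transcripts). On chromosome 1, Gm28439 (24611535 to 24612410) matched mt-Nd4l_4 over 876 nt at 100% identity, Gm10222 over 294 nt at 100%, and Gm28438 matched mt-Nd3 over 345 nt at 99.7%. These 3 copies had 0 counts in all 6 libraries, as did Gm11407, a copy of mt-Nd5 at 92.3% identity. Levels of mt-Nd3 and mt-Nd4l_4 are therefore uncertain against those of the other members. The most counted copy was Gm13339 (chromosome 2, 22590024 to 22590533), which matched mt-Nd2 over 510 nt at 96.7% identity. It had 11 counts over the knockout libraries, 0.402% of the mt-Nd2 counts there, and 447 over the control libraries, 0.981% of the mt-Nd2 counts there, and fell by 4.89 on the log2 scale (SE 0.69, adjusted p = 0.000133). Gm11408, a copy of mt-Nd6, had 0 counts over the knockout and 3 over the control libraries, and mt-Nd1 had no such copy in the table.

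The profile over the 6 libraries was compared between the complex I members and every other tested feature as a description, on log2 CPM centred on each feature's mean. Members lay between 0.0534 (mt-Nd5) and 0.404 (mt-Nd6) from the mean profile of the 6 (root mean square difference, log2 units). The nearest mitochondrial features were the serine tRNA mt-Ts2 (0.173), mt-Atp8_6 (0.206), mt-Co2 (0.213), mt-Tr (0.237) and the alanine tRNA mt-Ta (0.306). Outside the mitochondrial genome the nearest with at least 10 CPM on average were the Y RNA gene Rny3 (0.225), the lincRNA 1700020I14Rik (0.260), the mature glutamate tRNA feature Glu-CTC-1 (0.409), the mature glycine tRNA feature Gly-GCC-5 (0.412) and the 7SK RNA gene Rn7sk (0.496). Rny3 had 64.7 ± 19.7 CPM in knockout and 783 ± 256 CPM in control hearts (SD, n = 3 each). The group difference makes up most of each profile, and all features share the same 6 libraries.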

How the data were processed

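The authors deposited raw counts per feature, 1 whole-number column per mouse; the design text names 4 technical replicates per mouse, with no account of how they were merged. A second deposited value is a signal, normalized counts (raw counts divided by 1 size factor per library, as found from the values; not used in any test) and the last is the authors' own comparison with log2 fold changes, a Wald score, p-values and adjusted p-values, per the file headers. Build mm10 and the tools featureCounts 1.5.1, cutadapt 1.14, DESeq2 1.16.1 and Bowtie2 2.2.9 are named in the submitters' processing notes; annotation, strand setting and treatment of multiple alignments were not stated.

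The knockout libraries were set against the control libraries with edgeR 4.0.16 (R 4.3.3; glmQLFit, glmQLFTest, TMM factors, no covariate) on the 1144 features left after filterByExpr by group (count minimum 10, total minimum 15); these held at least 99.89% of each library's counts. A Benjamini-Hochberg adjusted p under 0.05 over all tested features was called, and adjusted p-values in the text are those of this fit. The biological coefficient of variation was 0.217. CPM are TMM-scaled counts per library size in units of 1e6; log2 CPM used a prior count of 2. Ratios of 2 features used a pseudocount of 0.5. Shares and ratios were compared by exact two-sided permutation of the 6 libraries. Positions and sequences are from GENCODE M21 (GRCm38, the assembly of mm10), and the authors' features were taken to span the annotated genes. Alternatives were total counts, TMM factors from 3 RNA classes, DESeq2 1.42.0, no filter, a replicate block, leaving out each library, and other denominators and pseudocounts. The fit was tested on simulated data. No 2 libraries were copies (lowest chi-square per degree of freedom 79.1). There were 0 columns of other samples. Other software was BLASTN 2.17.0, matplotlib 3.10.9, SciPy 1.17.1, pandas 2.3.3 and Python 3.11.15.

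Named genes were the members, the other mitochondrial mRNAs and rRNAs, the tRNAs next to a member, the tissue markers, pseudogenes alike in sequence, and the 5 mitochondrial and 5 other features nearest in profile. The members and lists were chosen with earlier results of these data known. The titles number replicates and do not name single mice, so p-values measure the spread between these libraries.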

Additional observations from a re-analysis of the deposited data

How the results depend on the processing

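All 6 complex I features and all 5 other mitochondrial mRNA features were called lower under each of the 13 alternatives run. The highest adjusted p of a complex I feature was 0.000165 (mt-Nd2, edgeR with factors from miRNA features). The log2 fold changes of mt-Nd6 ran from -5.50 to -4.12 and those of mt-Nd4l_4 from -4.07 to -2.67, with the lower end under snoRNA and scaRNA factors and the upper under snRNA and nuclear rRNA factors. Over all features the counts of lower calls (309) and higher calls (265) moved. With total counts 170 were higher, with snoRNA and scaRNA factors 659 were lower and 101 higher, with snRNA and nuclear rRNA factors 406 were higher, with no filter 708 were lower and 433 higher, and with DESeq2 593 were lower. Leaving out 1 library gave 261 to 559 lower and 225 to 349 higher calls. The cause was not tested, except that 9254 features were tested with no filter and 2975 with DESeq2. The difference of -0.54 percentage points in the complex I share of all counts was -4.17 points when taken of mitochondrial counts, another denominator. With a pseudocount of 10 in place of 0.5, the differences in log2 ratio to the 5′ tRNA were 0.94 for mt-Nd4l_4, 0.52 for mt-Nd5 and 0.99 for mt-Nd6, where tRNA or mRNA counts in knockout libraries were under 100. Leaving out 1 library changed the sign of no share or ratio difference. Libraries with the same replicate number in both groups did not deviate together (r across features of -0.13, -0.02 and -0.19 for numbers 1 to 3), and no knockout library correlated best with the control library of its own number. With the number as a replicate block, 536 features were called in place of 574, and mt-Nd6 had a log2 fold change of -4.64. Depth limits mt-Nd6 most, with 41 to 82 counts per knockout library.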
